A study of Mus musculus with 6 samples.

Results

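The aquaporins Aqp1, Aqp3, Aqp4, Aqp5, Aqp7, Aqp9 and Aqp11 were examined in cochlear RNA of young and old mice. They were selected by gene name, and are 7 of the 25823 genes that the transcript table gave after the FPKM (fragments per kilobase of transcript, scaled to the fragments mapped in the sample, a level per transcript length) of the transcripts of each gene had been added. Both groups were C57BL/6 mice, an inbred strain that loses hearing early in life, and no treatment is given in the labels for either of them. The Young group was 1 month old and the Old group was 12 months old, with 3 samples in each. Tissue of 3 mice was pooled for each sample and the labels name the basilar membrane as the tissue. The sexes of the mice are not given in the labels. The numbers of the samples are names, and nothing in the labels ties a Young sample to an Old one. The p-values below measure the spread between these pools only.

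Aquaporins are membrane channels that let water follow an osmotic gradient. They are grouped by what they pass. Aqp1, Aqp4 and Aqp5 are classical water channels. Aqp3, Aqp7 and Aqp9 are aquaglyceroporins, which pass glycerol as well as water. Aqp11 is an unorthodox aquaporin that is found in the membrane of the endoplasmic reticulum. In the inner ear, the fluid spaces on either side of the sensory epithelium differ in their ions and are kept at a stable volume. Aqp1 is known from fibrocytes, mesenchymal cells and erythrocytes, Aqp4 from supporting cells and Aqp5 from outer sulcus cells.

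The samples held an estimated 12530000 to 15480000 fragments each, read from the steps between low FPKM values. The samples held markers of tissue beyond the sensory epithelium of the basilar membrane. Coch, a matrix protein of spiral ligament fibrocytes, was the marker with the highest level, from 7371 to 9242 FPKM in the young samples and from 5303 to 5702 FPKM in the old ones. The 8 hair cell markers summed to 199 to 285 FPKM in the young samples and to 145 to 164 FPKM in the old ones. Markers of other tissues stood apart in single samples. The 10 neutrophil markers summed to 441 FPKM in Young replicate 1, against 12.5 to 86.5 FPKM in the other 5 samples. Bpifa1, a secreted protein of airway epithelium, reached 157 FPKM in Young replicate 1 and 161 FPKM in Young replicate 3, against 13.8 to 30.4 FPKM elsewhere. Bpifb1, another marker of airway epithelium, reached 23.4 FPKM in Old replicate 1, against 0 to 1.51 FPKM elsewhere. The 9 skeletal muscle markers summed to 28.1 FPKM in Old replicate 1, against 7.65 to 11.4 FPKM in the other 5 samples. Gfap, Mobp and Mog of the central glia list were highest in Young replicate 1 and are given with Aqp4 below. The 8 macrophage markers summed to 65.2 to 108 FPKM in the young samples and to 252 to 327 FPKM in the old ones. Of the markers tested, 7 of 8 for macrophages and 1 of 10 for neutrophils were called higher, 2 of 8 for hair cells were called lower, and 0 of 8 for skeletal muscle were called. The medians of these lists were 1.76, −0.03, −0.64 and 1.19. In bulk tissue, fewer cells of a type and less RNA per cell cannot be told apart.

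The promoters of the most abundant aquaporin, Aqp1, and of Aqp11, the gene among the 7 that passed the test of age, are shown because they differ in their density of CpG dinucleotides. Both were taken from RefSeq on GRCm38.p6 and cut to bases that lie before the first annotated exon, and capitals mark every CpG. The Aqp11 stretch reaches up to that exon. The Aqp1 stretch ends at 55336298, short of its first exon at 55336432, so the stretches lie at different distances from the exon. The Aqp1 stretch is chr6:55336049-55336298 on the plus strand with 5 CpG in 250 bases. The Aqp11 stretch is chr7:97738290-97738497 on the minus strand with 18 CpG in 208 bases.
Aqp1: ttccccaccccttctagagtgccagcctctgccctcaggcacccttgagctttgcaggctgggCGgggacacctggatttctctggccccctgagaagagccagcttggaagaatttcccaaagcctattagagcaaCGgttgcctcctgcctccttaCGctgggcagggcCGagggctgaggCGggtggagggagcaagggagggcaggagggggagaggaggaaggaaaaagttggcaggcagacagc
Aqp11: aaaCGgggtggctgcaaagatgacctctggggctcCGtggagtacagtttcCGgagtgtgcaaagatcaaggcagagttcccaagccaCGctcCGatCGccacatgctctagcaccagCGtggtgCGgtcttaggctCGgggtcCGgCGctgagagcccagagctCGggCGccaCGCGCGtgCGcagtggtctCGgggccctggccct

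RefSeq promoter windows of 300 bases are described for 6 of the 7 aquaporins, 8 windows in all. Windows on chromosome 18, where Aqp4 lies, were left out of the member windows, so none is described for Aqp4. Across all 32851 windows of the mouse the median was 7 CpG, with quartiles at 3 and 20. The window of Aqp5 held 46 CpG, that of Aqp11 held 27 and that of Aqp3 held 21, all above the upper quartile. The Aqp5 window starts at chr15:99590778 and the annotated gene at 99590782, so nearly all of this window lies inside the gene. The Aqp9 windows also lie within the span of their gene, chr9:71110659-71168682. The window of Aqp1 held 8, and the windows of the tissue-restricted Aqp7 and Aqp9 held 0 to 4. The density did not order the genes by level, since Aqp3 was barely detected and Aqp1 had the highest level. The GC box letters GGGCGG, searched on both strands, were found 3 times in the Aqp5 window and once each in those of Aqp1 and Aqp3, and 35.66% of all windows hold them. The TATA box letters TATAAA were found in the Aqp3 window only, and 13.62% of all windows hold them. The letters CCAAT were in none of the 8 windows and in 37.41% of all windows. The letters TGGAAA were in 1 window each of Aqp7 and Aqp9 and in 21.43% of all windows.

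The 7 genes split into 4 that were well measured and 3 that were close to 0. Aqp1, Aqp4, Aqp5 and Aqp11 passed the filter of a mean of at least 0.1 FPKM, and Aqp3, Aqp7 and Aqp9 did not. Of the 4 tested genes, 1 (Aqp11) was higher in the old samples at an adjusted p below 0.05 and 0 were lower (limma, Benjamini-Hochberg over 19649 genes). Over all genes tested, 5.41% were called higher, 3.68% lower and 9.09% in either direction. At an unadjusted p below 0.05 there were 3 of the 4, against 27.5% of all genes. The groups did not overlap for Aqp4 and Aqp11, against 33.5% of all genes. Over all genes, the old samples lay above the young ones in 17.5%, the pattern of Aqp11, and below them in 16.0%, the pattern of Aqp4. With 4 genes, these counts were not read as a difference between aquaporins and other genes.

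**Figure D1:**
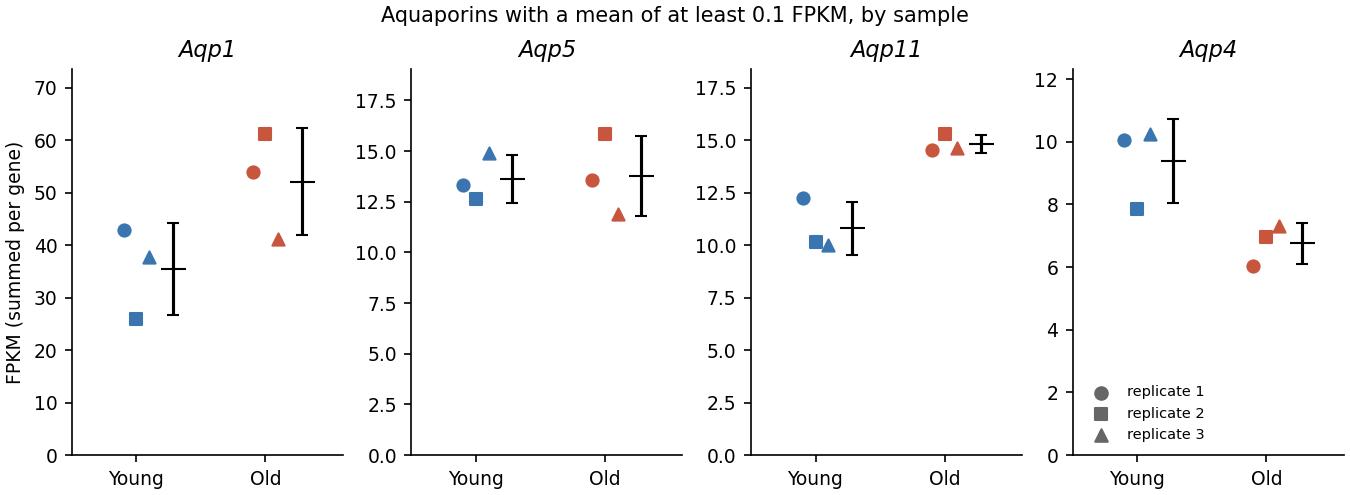
FPKM per gene (linear axes from 0, a scale of its own for each gene) in the 3 Young and 3 Old samples, for the 4 aquaporins that passed the filter. Points are samples (their shape gives the replicate number), and the black marks beside them are the group mean and SD. Old samples lie above all young samples for Aqp11 and below all young samples for Aqp4, and the groups overlap for Aqp1 and Aqp5.

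Aqp1, the water channel of erythrocytes, capillary endothelium and fibrocytes, had the highest level of all aquaporins in every sample. Its level was 43.0, 25.8 and 37.7 FPKM in Young replicates 1 to 3, and 53.8, 61.2 and 41.2 FPKM in Old replicates 1 to 3. The groups overlapped, because Old replicate 3 was below Young replicate 1. The means were 35.5 ± 8.77 FPKM (SD, n = 3) in young and 52.1 ± 10.1 FPKM (SD, n = 3) in old samples. The difference was 0.57 on the log2(FPKM + 0.1) scale (SE 0.21, 95% interval 0.07 to 1.06) and did not pass the test over all genes (limma, adjusted p = 0.136). The interval corresponds to a fold of 1.05 to 2.08 around 1.48. The exact permutation test gave p = 0.2, where the smallest two-sided p for 3 samples against 3 is 0.1. The lowest value of the gene came from Young replicate 2, and without that sample the log2 difference was 0.35. The gene lies at chr6:55336432-55348555 on the plus strand (GRCm38), and its 1 transcript in the table, ENSMUST00000004774, has 4 exons and 2627 nt.

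Lists of markers of the cell types known to carry Aqp1 had medians below that of all genes. Of 12 erythroid markers, 0 were called and the median log2 difference was −0.64, against 0.01 for all genes. Their summed level was 1435 to 2960 FPKM in young and 1370 to 2255 FPKM in old samples. Hbb-bs, a beta globin, was lowest among the young samples in Young replicate 2, at 832 FPKM against 1585 and 1560 FPKM in the other young samples, and Aqp1 was lowest in the same sample. Among the old samples the order differed, since Hbb-bs was lowest at 791 FPKM in Old replicate 2, where Aqp1 was highest. The erythroid markers did not share 1 order there. Their sum was 1370, 1409 and 2255 FPKM in Old replicates 1 to 3, so it was lowest in Old replicate 1. Of 10 endothelial markers, 0 were called, with a median of −0.38 and summed levels of 187 to 252 FPKM in young and 143 to 214 FPKM in old samples. Of 6 fibrocyte markers, Car3, a carbonic anhydrase, rose by 1.15 and Coch fell by 0.60 on the log2 scale (limma, adjusted p = 0.0127 and adjusted p = 0.0241), and the median of the list was −0.16. Their part in the level of Aqp1 was not tested.

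Aqp4, the water channel of astrocytes and of cochlear supporting cells, was lower in each old sample than in any young sample. Its level was 10.05, 7.85 and 10.3 FPKM in Young replicates 1 to 3, and 6.04, 6.96 and 7.30 FPKM in Old replicates 1 to 3. The closest values of the groups were 7.85 FPKM in Young replicate 2 and 7.30 FPKM in Old replicate 3. The means were 9.39 ± 1.34 FPKM (SD, n = 3) in young and 6.77 ± 0.652 FPKM (SD, n = 3) in old samples. The log2 difference was −0.46 (SE 0.14, 95% interval −0.80 to −0.13), a fold of 0.727 with an interval of 0.576 to 0.917. It did not pass the threshold after adjustment (limma, unadjusted p = 0.0137, adjusted p = 0.0883), and the exact permutation test gave p = 0.1, the smallest it can give. Leaving out 1 sample at a time gave −0.58 to −0.38. The table holds 1 transcript of Aqp4, ENSMUST00000079081, with 5 exons and 5054 nt, of 11 that are annotated. A gene annotated on the opposite strand, AC133525.2, overlaps Aqp4. The libraries kept the strand, but the strand setting used for counting is not given in the sources used here.

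Aqp4 is held at the membrane by the dystrophin complex, and none of its 11 listed partners was called (limma, adjusted p below 0.05). Their median log2 difference was 0.11. Utrn, a homologue of dystrophin, had means of 68.1 and 73.6 FPKM in young and old samples and a log2 difference of 0.11 (SE 0.08, adjusted p = 0.446 by limma).

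Marker lists that include cells known to carry Aqp4 are given beside it. The first list joins supporting cells, known for Aqp4, with outer sulcus cells, known for Aqp5. Its counts, sum and median do not stand for supporting cells alone. Of 10 markers of supporting and outer sulcus cells, 2 were called higher and 0 lower, with a median log2 difference of 0.18. Their summed levels were 1499 to 1694 FPKM in young and 1781 to 1957 FPKM in old samples. The 2 were Otog, a protein of the tectorial membrane, with a log2 rise of 0.71, and Slc26a4, the anion exchanger pendrin of outer sulcus and root cells, with a log2 rise of 1.18 (limma, adjusted p = 0.0326 and adjusted p = 0.00528). Of the 10 markers, 7 had a log2 difference above 0 and 3 below 0. The 3, named next, lay on the side of Aqp4 without passing the test. Prox1, a transcription factor of supporting cells, was at 2.84 to 5.19 FPKM in young and 1.69 to 2.16 FPKM in old samples, without overlap, with a log2 difference of −0.98 (limma, adjusted p = 0.0507). Slc1a3, a glutamate transporter of supporting cells, did not overlap either, with a log2 difference of −0.24 (limma, adjusted p = 0.149). Sox2, a transcription factor of supporting cells, overlapped between the ages, with −0.26 (limma, adjusted p = 0.358). These 5 markers were named after their values were seen. The 3 markers of this list with the highest levels, Gjb6, Gjb2 and Epyc, had log2 differences of 0.06, 0.25 and 0.18 and were not called. Of 6 markers of central glia that were tested, 0 were called and the median was −0.35, and the 7 markers summed to 74.7 to 86.2 FPKM in young and 75.8 to 78.0 FPKM in old samples. Agt and Slc1a2, genes of astrocytes, were at 21.3 to 31.4 FPKM and 24.9 to 37.6 FPKM over the 6 samples. Aldh1l1, also of this list, was at 14.8 to 16.2 FPKM in young and 17.3 to 21.4 FPKM in old samples. It was not called (limma, adjusted p = 0.136). Gfap, Mobp and Mog were highest in Young replicate 1, at 6.36, 4.54 and 1.54 FPKM. Elsewhere they were at 0.756 to 3.90, 0.0761 to 0.773 and 0 to 0.403 FPKM. Gfap, Mobp and Mog were named after their values were seen. The part of these cell types in the level of Aqp4 was not tested.

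Aqp5, the water channel of glands and of outer sulcus cells, had close to equal means at both ages. Its level was 13.3, 12.6 and 14.9 FPKM in Young replicates 1 to 3, and 13.6, 15.9 and 11.9 FPKM in Old replicates 1 to 3. The old samples held both the highest and the lowest value. The means were 13.6 ± 1.18 FPKM (SD, n = 3) in young and 13.8 ± 1.98 FPKM (SD, n = 3) in old samples. The log2 difference was 0.01 (SE 0.13, 95% interval −0.29 to 0.31; limma, adjusted p = 0.970). The interval corresponds to a fold of 0.819 to 1.24, and a change of a size within it remains compatible with these samples. The sign of the difference turned when 1 of several samples was left out, with −0.10 without Old replicate 2. Slc26a4, which shares the outer sulcus with Aqp5 in textbook accounts, was called higher in the same samples. It was named after its value was seen, and is among the 2 called of 10 markers of supporting and outer sulcus cells. Their median log2 difference was 0.18, with 7 above 0 and 3 below 0. The part of outer sulcus cells in the level of Aqp5 was not tested.

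Aqp5 was carried by its longer transcript. ENSMUST00000169082, with 4 exons and 1797 nt, gave 12.3, 12.6 and 14.9 FPKM in the young samples and 11.9, 15.5 and 11.9 FPKM in the old ones. ENSMUST00000088200, with 5 exons and 1376 nt, gave 1.02 FPKM in Young replicate 1, 1.67 FPKM in Old replicate 1 and 0.369 FPKM in Old replicate 2, and was below 0.001 FPKM in the other 3 samples. The shorter transcript was therefore unevenly assigned within both groups. Aqp5 lies at chr15:99590782-99594829 on the plus strand, between its relatives Aqp2 and Aqp6, with gaps of 6234 nt to Aqp2 and 6570 nt to Aqp6.

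Aqp11, the aquaporin of the endoplasmic reticulum, rose with age. Its level was 12.3, 10.1 and 10.02 FPKM in Young replicates 1 to 3, and 14.5, 15.3 and 14.6 FPKM in Old replicates 1 to 3. Each old sample was above each young sample, and the old samples lay within less than 1 FPKM of each other. The means were 10.8 ± 1.26 FPKM (SD, n = 3) in young and 14.8 ± 0.428 FPKM (SD, n = 3) in old samples. The log2 difference was 0.46 (SE 0.11, 95% interval 0.21 to 0.71), a fold of 1.38 with an interval of 1.16 to 1.63. It passed the threshold (limma, unadjusted p = 0.00302, adjusted p = 0.0419), and the exact permutation test gave p = 0.1, the smallest it can give. The call was close to the threshold and depended on single samples. It was lost without Young replicate 2 (adjusted p = 0.123), Young replicate 3 (0.0813), Old replicate 1 (0.0969), Old replicate 2 (0.140) or Old replicate 3 (0.0978) in limma, while the log2 difference stayed between 0.41 and 0.55.

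The rise of Aqp11 was divided between its 2 transcripts in the table. ENSMUST00000206389, with 3 exons and 3737 nt, gave 8.60, 9.05 and 9.91 FPKM in Young replicates 1 to 3 and 10.8, 10.9 and 11.6 FPKM in Old replicates 1 to 3. The groups did not overlap, and the log2 difference was 0.27 (SE 0.10; limma over 38764 transcripts, adjusted p = 0.248). ENSMUST00000084986, with 2 exons and 896 nt, gave 3.65, 1.09 and 0.102 FPKM in the young samples and 3.68, 4.45 and 3.08 FPKM in the old ones. The groups overlapped for this shorter form, with a log2 difference of 1.98 (limma, adjusted p = 0.363). It rested on an estimated 29.36, 9.03 and 0.76 fragments in Young replicates 1 to 3. In Old replicates 1 to 3 it rested on 27.51, 43.09 and 24.99. Its means were 1.61 FPKM in young and 3.74 FPKM in old samples, against 9.19 and 11.1 FPKM for the longer form. The size of the summed rise thus depended in part on a form with few fragments. The long form made up 70.2%, 89.3% and 99.0% of Aqp11 in the young samples and 74.6%, 71.0% and 79.0% in the old ones. Young replicate 1 had an old-like division of the forms, so that the division did not separate the ages. Aqp11 lies at chr7:97724006-97738289 on the minus strand.

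**Figure D2:**
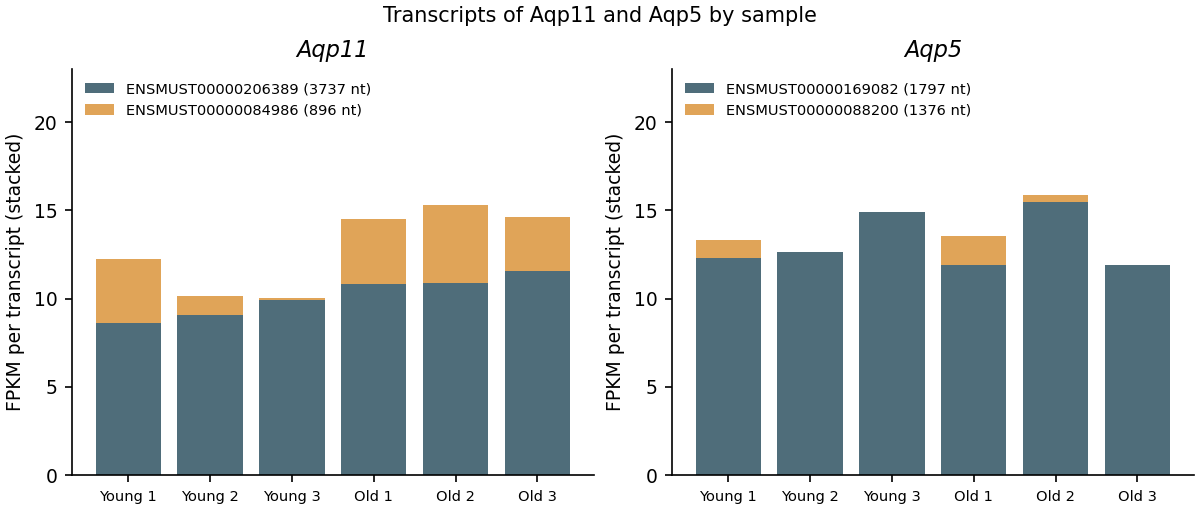
FPKM per transcript, stacked for each of the 6 samples (linear axis from 0), for the genes with more than 1 transcript above the filter, Aqp5 and Aqp11. The long form of Aqp11 is higher in each old sample than in any young sample, while the short form varies from 0.102 to 3.65 FPKM among the young samples.

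Of the 12 transcripts of the 7 genes in the table, 6 passed the filter and 0 were called in limma (adjusted p below 0.05), against 0.748% of all transcripts tested. At an unadjusted p below 0.05 there were 3, against 17.0% of all transcripts. The groups did not overlap for the Aqp4 transcript and the long form of Aqp11, against 24.6% of all transcripts. The call of Aqp11 was thus a call on the summed level of the gene.

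The aquaglyceroporins were at the limit of detection. Over all 6 samples, Aqp3, Aqp7 and Aqp9 together held an estimated 20 fragments, with at most 3 in a sample. A count of 0 allows up to 3 fragments, which covers every value of the 3 genes, so that no difference between the ages was detectable at this depth and no fold is given. These limits cover counting error only.

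Aqp3, a glycerol channel of epidermis and kidney, had levels of 0.102, 0.147 and 0 FPKM in Young replicates 1 to 3. The levels in Old replicates 1 to 3 were 0, 0.0429 and 0.0502 FPKM. These values stand for 2, 3 and 0 fragments in young and 0, 1 and 1 in old samples. Aqp3 is known from the basal layer of keratinised epithelium, and some markers of that layer were near 0 as well. Krt5 was at 0 in 5 of the 6 samples and at 0.0334 FPKM in Old replicate 2, and Krt15 and Dsg3 were below 0.1 FPKM in each sample. Others were not. Krt14, a keratin of the same layer, had means of 1.19 FPKM in young and 2.52 FPKM in old samples and a log2 rise of 1.03 (limma, adjusted p = 0.0400). Trp63, also of this list, was at 0.342 to 1.03 FPKM over the 6 samples, with a log2 difference of 0.67 (limma, adjusted p = 0.283). Of the 9 markers of keratinising and airway epithelium 5 were tested and 1 was called, with a median of 1.03 and the lowest value, −1.88, for Bpifa1. Krt5, Krt15, Dsg3 and Trp63 were named after their values were seen. Aqp3 lies at chr4:41092722-41098183 on the minus strand, 44582 nt from Aqp7.

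Aqp7, the channel through which adipocytes release glycerol, was at 0.0403, 0.0773 and 0 FPKM in Young replicates 1 to 3 and at 0.0427, 0.0340 and 0.119 FPKM in the old ones, which stand for 1, 2 and 0 and for 1, 1 and 3 fragments. Of 10 adipocyte markers, 5 passed the filter, with a median log2 difference of −0.33. The defining markers of adipocytes were near 0. Lep, the hormone leptin, was at 0 in all samples, and Adipoq, Plin1 and Cfd had means below 0.1 FPKM and were not tested. The most abundant markers were Plin4, Lpl and Pparg. Plin4, a lipid droplet protein, was at 38.8 to 82.1 FPKM and was not called. Lpl, a lipase that frees fatty acids from circulating fat, rose by 0.80 on the log2 scale (limma, adjusted p = 0.0431). Pparg, a transcription factor of fat cells, was lower in each old sample than in any young sample, with a log2 difference of −1.28 (limma, adjusted p = 0.141). Cidec, a lipid droplet protein, did not overlap either, with −0.85 (limma, adjusted p = 0.376). Its mean of 0.104 FPKM was just above the filter, with 0.153 to 0.162 FPKM in young and 0 to 0.105 FPKM in old samples, so its difference rests on values near 0. Lep, Adipoq, Plin1, Cfd and Cidec were named after their values were seen. Aqp7 lies at chr4:41033074-41048139 on the minus strand.

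Aqp9, a channel for glycerol and urea of liver and leukocytes, was at 0.0957, 0 and 0 FPKM in Young replicates 1 to 3 and at 0.0337, 0.0445 and 0 FPKM in the old ones, which stand for 3, 0 and 0 and for 1, 1 and 0 fragments. All of these values are within what a count of 0 allows. Aqp9 lies at chr9:71110659-71168682 on the minus strand, and an antisense gene, Gm32511, overlaps it.

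**Figure D3:**
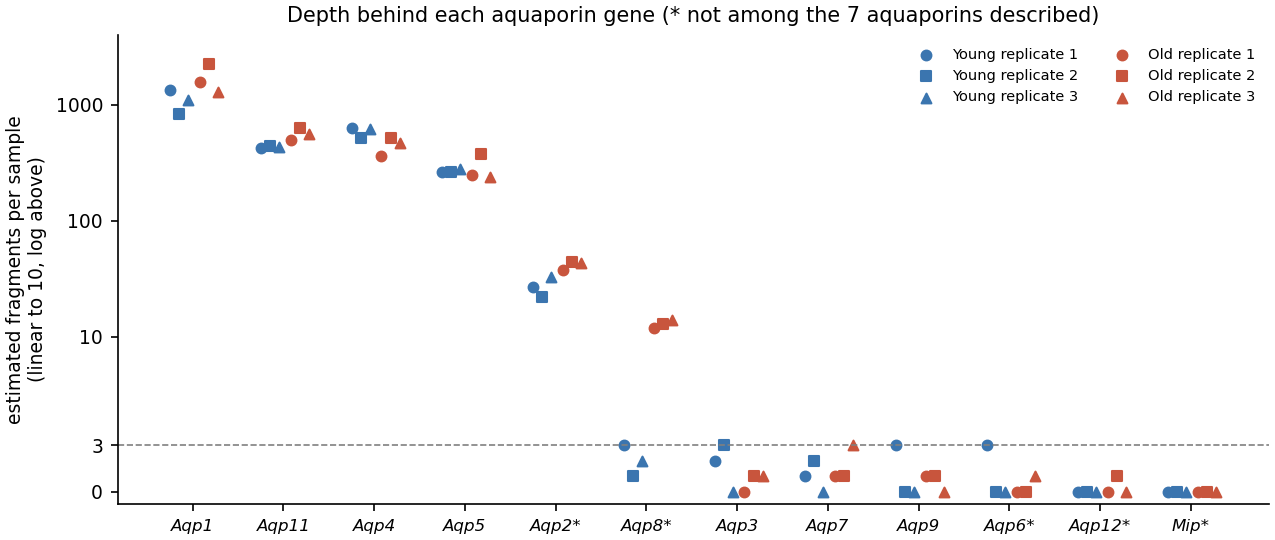
Estimated fragments per sample for each aquaporin gene (vertical axis linear to 10 and logarithmic above), by age group, with genes outside the 7 marked by an asterisk and a dashed line at the 3 fragments that a count of 0 allows. Aqp1, Aqp4, Aqp5 and Aqp11 rest on 240.3 to 2234 fragments in a sample, and Aqp3, Aqp7 and Aqp9 on 0 to 3.

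The order of levels was Aqp1, Aqp5, Aqp11, Aqp4 in the young samples and Aqp1, Aqp11, Aqp5, Aqp4 in the old ones. In the young samples Aqp1 stood above Aqp5 without overlap. Aqp5 and Aqp11 were neighbours without overlap, but only just, with the lowest Aqp5 at 12.6 FPKM and the highest Aqp11 at 12.3 FPKM. The ranges of Aqp11 and Aqp4 overlapped there. In the old samples the ranges of Aqp11 and Aqp5 overlapped, so that the exchange of their places did not exceed the spread. Aqp4 was below both in every old sample.

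The depth behind these levels did not follow the levels, because the transcripts differ in length. Aqp4, the longest, rested on 359.8 to 635 estimated fragments in a sample and Aqp5 on 240.3 to 373, although Aqp5 had the higher FPKM. Aqp11 rested on 423 to 627 and Aqp1 on 836 to 2234 fragments. Of the Aqp11 fragments, 0.76 to 43.09 in a sample were assigned to its short form.

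The 7 genes summed to 78.8, 56.7 and 72.9 FPKM in Young replicates 1 to 3 and to 88.1, 99.5 and 75.2 FPKM in Old replicates 1 to 3. The groups overlapped (exact permutation test, p = 0.2). Most of this sum was Aqp1, which took 54.5%, 45.6% and 51.7% of it in the young samples and 61.1%, 61.5% and 54.8% in the old ones. The share of Aqp1 was higher in each old sample than in any young sample, by 54.8% against 54.5% at the closest.

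The share of Aqp4 in the sum was 12.7%, 13.8% and 14.1% in the young samples and 6.86%, 6.998% and 9.70% in the old ones. The share of Aqp5 was 16.9%, 22.3% and 20.5% in the young samples and 15.4%, 15.9% and 15.8% in the old ones. For both genes each old sample was below each young sample. The shares of 1 sample add up to 100%, so a higher share of Aqp1 lowers the others. The share of Aqp11 was 15.5%, 17.9% and 13.7% in the young samples and 16.5%, 15.4% and 19.5% in the old ones, and the groups overlapped (exact permutation test, p = 0.5).

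Ratios within a sample do not depend on the scaling between samples. They were chosen after the levels had been seen and are given as a description. The ratio of Aqp11 to Aqp4 was 1.22, 1.29 and 0.976 in the young samples and 2.41, 2.20 and 2.01 in the old ones. Aqp11 and Aqp4 were thus close to equal in the young samples, and Aqp11 was above Aqp4 in each old sample. The ratio of Aqp4 to Aqp5 was 0.754, 0.622 and 0.688 in the young samples and 0.445, 0.439 and 0.613 in the old ones, without overlap but with Old replicate 3 next to Young replicate 2.

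The other aquaporins of the mouse were Aqp2, Aqp6, Aqp8, Aqp12 and Mip, of which Aqp2 and Aqp8 passed the filter. Aqp8, a channel that also passes ammonia and hydrogen peroxide, was at 0.194, 0.0602 and 0.134 FPKM in Young replicates 1 to 3 and at 0.799, 0.687 and 0.866 FPKM in the old ones. It rose with age, by 1.98 on the log2(FPKM + 0.1) scale (SE 0.40; limma, adjusted p = 0.0305). The size depended on the pseudocount, with 0.66 at a pseudocount of 1 and 2.63 at 0.01. This rested on 6 estimated fragments in the young and 39 in the old samples, a ratio per fragment sequenced of 6.18 with an exact 95% counting interval of 2.60 to 17.9. The call was lost, with an adjusted p of 0.0511 to 0.103 in limma, without Young replicate 1 or 2 or without Old replicate 1, 2 or 3. Aqp2, the vasopressin-regulated channel of the kidney, was at 1.80, 1.41 and 2.35 FPKM in Young replicates 1 to 3 and at 2.69, 2.47 and 2.89 FPKM in the old ones, with a log2 difference of 0.54 (SE 0.23; limma, adjusted p = 0.175). The groups of Aqp2 did not overlap. Aqp6 had 3 fragments in Young replicate 1 and 1 in Old replicate 3, Aqp12 had 1 in Old replicate 2, and Mip, the aquaporin of the lens, was at 0 in all samples.

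**Figure D4:**
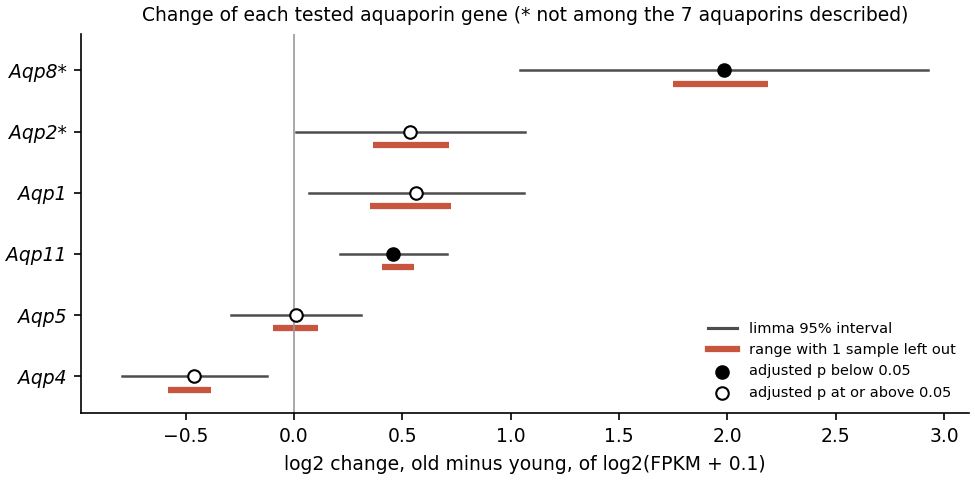
Log2 difference between old and young samples (old minus young, on log2(FPKM + 0.1)) of each tested aquaporin with its 95% interval (thin line) and its range with 1 sample left out (red bar), filled where the adjusted p was below 0.05. An asterisk marks Aqp2 and Aqp8, which are outside the 7. The interval of Aqp5 spans 0, that of Aqp11 runs from 0.21 to 0.71 and that of Aqp4 from −0.80 to −0.13.

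Genes that work with aquaporins were taken by pathway. In vasopressin signalling, which moves Aqp2 to the membrane through cyclic AMP, 1 of 8 genes was called. Akap7, an anchor of protein kinase A, rose by 0.56 on the log2 scale (SE 0.14; limma, adjusted p = 0.0477), from a mean of 33.9 FPKM to 50.3 FPKM. The median of the list was −0.12. The call of Akap7 was lost without any 1 of the 6 samples (adjusted p from 0.0698 to 0.132 in limma). In glycerol metabolism, the pathway served by the aquaglyceroporins, 1 of 9 genes was called. Gpat4, which puts the first fatty acid on glycerol 3-phosphate, fell by 0.47 on the log2 scale (SE 0.11; limma, adjusted p = 0.0463), and the median of the list was 0.02. With the most abundant transcript per gene the log2 difference of Gpat4 was −0.18 (limma, adjusted p = 0.287). This call too was lost without any 1 sample (adjusted p from 0.0692 to 0.138 in limma). In cell volume regulation, 1 of 15 genes was called. Slc5a3, which takes up the osmolyte myo-inositol, had a mean of 590.0 ± 130 FPKM in young and 327 ± 27.8 FPKM in old samples (SD, n = 3), and fell by 0.83 on the log2 scale (SE 0.15; limma, adjusted p = 0.0250). The call was lost without Old replicate 1, 2 or 3 (adjusted p of 0.0733, 0.0872 and 0.0624 in limma). The median of that list was 0.01. In these 3 lists and the Aqp4 partners together, most genes were not called, and the medians stood on both sides of the median of all genes, 0.01.

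**Figure D5:**
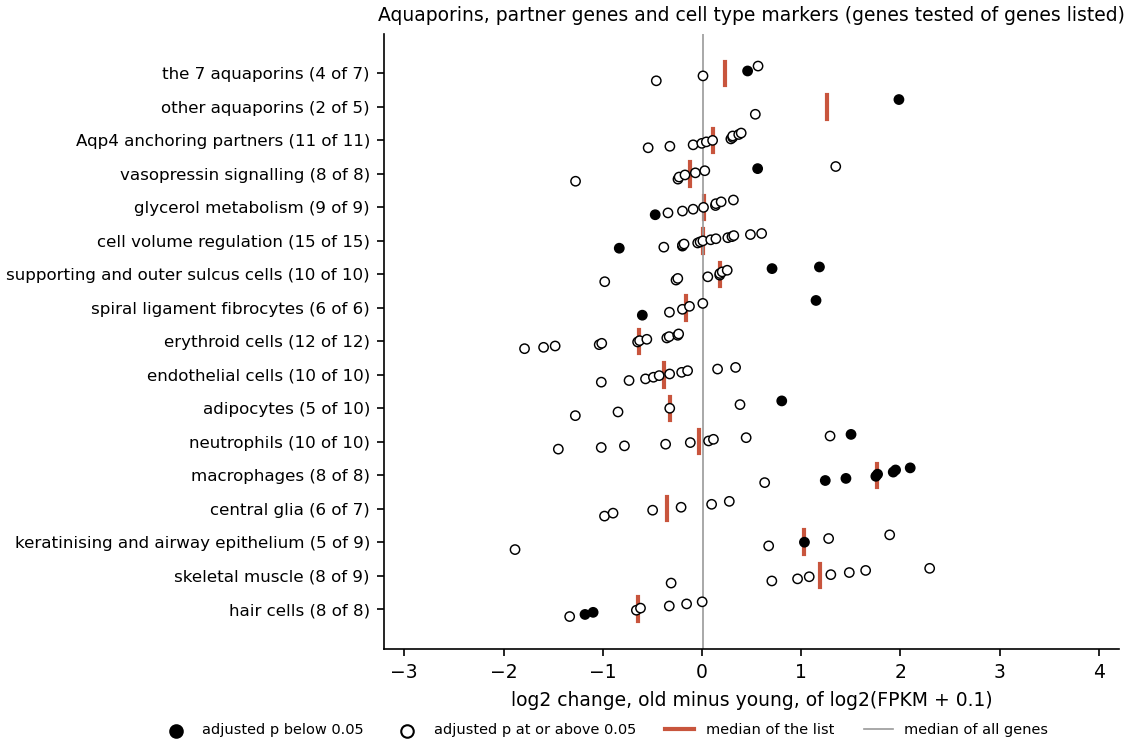
Log2 difference (old minus young, on log2(FPKM + 0.1)) of each tested gene in the aquaporin, pathway and cell type marker lists. Filled points passed an adjusted p of 0.05, red bars are list medians and the grey line is the median of all genes. The pathway lists lie around 0, while 7 of the 8 macrophage markers are filled at the right, with a list median of 1.76.

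Aqp11 was compared with the genes that were most like it over the 6 samples. Pearson correlations of log2(FPKM + 0.1) were computed with 15073 genes of a mean of at least 1 FPKM. For Aqp11 they were highest with Igfbp2 (0.997), Fcgr4 (0.997) and Arid5b (0.995). For Aqp1 they included Ulk4 (0.993) and Ankfn1 (0.986). For Aqp4 they were highest with Pot1a, Ftsj1 and Tnfsfm13 (0.988 each), and for Aqp5 with Tsacc (0.976), Cotl1 (0.975) and Cntrob (0.973). The 6 points share their libraries and fall into 2 ages, and the values describe these libraries only. Among the 4 genes themselves, the correlation was 0.82 for Aqp1 with Aqp11, −0.70 for Aqp4 with Aqp11, −0.42 for Aqp1 with Aqp4, and 0.54 for Aqp1 with Aqp5.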

How the data were processed

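Per the study's methods, directional libraries were made from total RNA and sequenced paired-end, reads were aligned to GRCm38 and transcripts were assembled and measured by the authors. The submitters' processing notes name CASAVA 1.8, TopHat2 2.0.9, Cufflinks 2.1.1 and Cuffdiff 2.1.1. The annotation release and the scaling between libraries are not given in the sources used here. The deposited values are FPKM per transcript for 6 samples, and were not scaled further.

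Of 55679 Ensembl transcripts, 55275 were matched to GENCODE M21 and summed per gene. The 992 transcripts of the authors' own prefix and the 404 unmatched Ensembl transcripts were each kept as a gene of their own. They count among the 25823 genes and, where they passed the filter, among the genes tested. Genes or transcripts with a mean of at least 0.1 FPKM were tested with limma 3.58.1 in R 4.3.3 (lmFit, eBayes with trend) on log2(FPKM + 0.1), with age as the only term and Benjamini-Hochberg adjustment over all of them. Cuffdiff, the study's test, works on reads and was not run. A log2 change on this scale understates that of genes near 0.1 FPKM. Single values were compared by a two-sided exact permutation test. The code was tested on simulated data.

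Fragments per sample were estimated from transcripts of 1000 to 4000 nt, of whose low values 92.9% to 94.5% fell within 0.1 of a whole number of fragments, against 20% by chance. The intervals and limits cover counting error only. The FPKM sums were 576487 to 601724.

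The aquaporins, pathway lists and 11 marker lists were chosen with earlier results of these data known. Named are the aquaporins, the called genes of a pathway list (or the 2 most abundant where none was called), up to the 3 most abundant genes of a marker list and the 3 genes most like each aquaporin. Other markers are named where it is said that their values had been seen. The values of 2 genes that this rule names are not reported here. Alternatives were pseudocounts of 0.01 and 1, no filter or a mean of 1 FPKM, median-of-ratios and quantile scaling, no variance trend, sample weights, a replicate block, each sample left out, the most abundant transcript per gene and adjustment over protein-coding genes.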

Additional observations from a re-analysis of the deposited data

How the results depend on the processing

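Of 17 alternatives, 8 kept the 1 aquaporin (Aqp11) called higher among the 7 genes, and 9 gave 0. It was 0 without the filter, without the variance trend and with the most abundant transcript per gene, where the adjusted p of Aqp11 by limma was 0.0577, 0.0910 and 0.135. Leaving out 1 sample gave 0 to 1, with 1 only without Young replicate 1. The log2 change of Aqp11 was positive in all 17, from 0.27 to 0.55, with an adjusted p of 0.0297 to 0.140. The replicate block gave 0, with an adjusted p of 0.0838 for Aqp11, and 410 genes higher and 265 lower in place of 1063 and 724. Samples with the same number did not deviate together (correlations of −0.0416 to 0.0220), so the numbers were not taken to pair samples. No aquaporin was called lower in any of the 17, and none of their transcripts was called in 15. Aqp4 was −0.58 to −0.38 and Aqp1 0.35 to 0.72 on the log2 scale in all 17, with adjusted p of 0.0673 to 0.201 and 0.101 to 0.331. Aqp5 turned to −0.0258 with the most abundant transcript and ranged from −0.10 to 0.11 with 1 sample left out. Aqp8 was positive in its 16 alternatives, from 0.66 to 2.63, and the adjusted p missed the threshold in 6. Akap7 missed it in 11 of 17, Gpat4 (−0.55 to −0.18) in 10 and Slc5a3 in 5. The calls over all genes were 616 higher and 292 lower without the filter, 271 and 121 without the variance trend, and from 44 to 935 and 15 to 821 with 1 sample left out. No scaling moved the median of all genes by over 0.1. At this depth, nothing can be said of a change of Aqp3, Aqp7 or Aqp9.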
